A study of Sus scrofa with 30 samples.

Results

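The genes described here are 9 hormone receptors and receptor partners of the pig mammary gland: VDR, NR3C1, NR3C2, RXRA, THRA, THRB, RARA, GHR and NCOA1. They were taken by name out of 14907 genes that the table holds under reference transcript identifiers. For each gene, all of its measured reference transcripts were added up to a gene sum. The tissue was mammary parenchyma of crossbred Danish Landrace × Yorkshire sows, all multiparous half-siblings, with 6 sows per stage and 30 in all. The stages were day 70 of gestation (MG, mid-gestation), day 110 of gestation (LG, late gestation), day 2 postpartum (EL, early lactation), day 10 postpartum (PL, peak lactation) and day 2 after weaning (W2). The labels name no transgene or treatment, and the stage was the variable compared.

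Nuclear receptors are transcription factors that small lipid-soluble hormones switch on. VDR binds the active form of vitamin D, NR3C1 is the glucocorticoid receptor, NR3C2 is the mineralocorticoid receptor, THRA and THRB bind thyroid hormone, and RARA binds retinoic acid. RXRA is the shared partner with which VDR, the thyroid hormone receptors and RARA pair on DNA, and NCOA1 is a coactivator that nuclear receptors recruit once hormone is bound. GHR stands apart from these as a cell surface receptor, which passes the growth hormone signal through the kinase JAK2 to STAT5. Glucocorticoids act with prolactin to induce milk protein genes, and growth hormone sustains milk yield in many mammals.

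Of the 6 samples of each stage, 3 were near-copies of one another (largest median difference between a pair 1.80% to 1.85% by stage) and of the mean of the other 3, which differed from one another by at least 19.6%. The near-copies were not used as replicates. The other 3 samples of each stage were counted (n = 3, 15 samples in all), and they are named by their stage and sample number. Samples whose names give EL carry a stage label of mid-gestation and those named MG one of early lactation. The names were followed. The comparisons over all 5 stages and of PL with the other 4 stages are the same either way, but statements below on MG or EL, among them those on VDR at MG and THRA at EL, rest on the names. The summed level of 6 milk genes that mark secretory epithelium was lower in the samples named MG (11906 to 29461 units) than in those named EL (63857 to 120785 units), without overlap. The authors name the values FPKM. They sum to 997480 to 1002643 in each sample, as TPM do, and are called units below. They allow levels of genes to be compared per length. At PL a handful of milk genes held a large part of that fixed total (91237 to 285004 units for the same 6 genes). The median log2 fold change of all 26019 tested features was -0.47 in PL against the other stages and 0.68 in W2 vs PL. PL sample 2 stood furthest from the rest, with a log2 scaling factor of -0.82 against -0.25 for both other PL samples. Values that depend on this shift are given with and without a scaling by the median ratio of features with at least 10 units in every sample (median ratio scaling).

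Averaged over the 15 samples, VDR was the most abundant of the 9 at 32.9 units, a level above that of 85.6% of the reference genes. NR3C1 followed at 16.1 units, RXRA at 14.2, RARA at 11.6, THRA at 9.59 and THRB at 8.32. NR3C2 averaged 3.81 units, GHR 1.50 and NCOA1 1.21, the last above only 20.3% of the reference genes. The spread over all samples was 25.1 units (SD) for VDR and 3.58 for NR3C1, so these levels of single samples overlap. From NR3C1 to THRB each mean lay closer to the next than the SDs of these genes (3.26 to 4.85 units), and so did GHR and NCOA1 with SDs of 0.993 and 1.74, so the order among these neighbours does not exceed their spread. The table holds 34 of the 104 annotated transcripts of the 9 genes, and transcripts that the authors assembled were not assigned to a gene, so a gene sum can miss part of a gene's RNA.

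**Figure D1:**
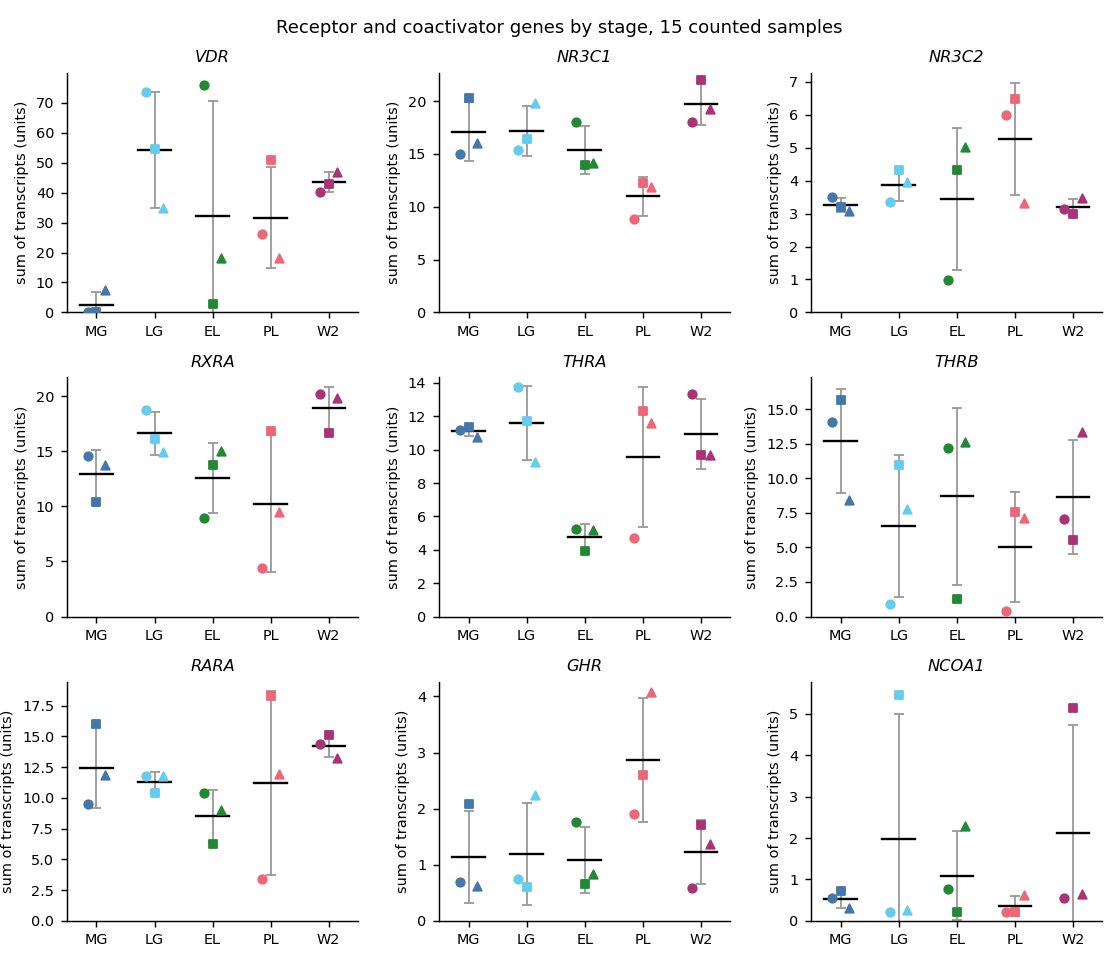
Gene sums of the 9 genes in units (vertical axes, from 0) in the 3 counted samples of each stage (symbols), with the stage mean (black line) and SD (grey bar). VDR was at most 7.43 units in the MG samples, NR3C1 was lowest in the 3 PL samples, THRA was low in the 3 EL samples, and GHR had its highest mean at PL.

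Tests were made with limma on log2(units + 0.5) over all features, and a gene is said to be called where its Benjamini-Hochberg adjusted p was below 0.05. Over the 5 stages, 1 of the 9 genes was called (VDR), where 18.3% of all features were. Between pairs of stages, 5 of 90 gene and stage pairs were called, all of them involving PL. Of the 9 genes, 2 were called in PL vs MG (25.2% of all features), 1 in PL vs LG (14.7%) and 2 in W2 vs PL (32.8%). PL against the mean of the other 4 stages (30.3% of all features), a comparison chosen with earlier results of these data known, called 2 genes. None was called in PL vs EL, where 4.62% of all features were. There 3 of the 9 had an unadjusted limma p below 0.05, as did 4947 of the 26019 features. In W2 vs EL no gene was called by limma, while 0.553% of all features were. There 1 gene had an unadjusted p below 0.05, as did 6532 of the 26019 features. The comparisons of MG, LG, EL and W2 that remain called almost nothing at n = 3: 0.0115% of all features in LG vs MG, 0.0269% in EL vs MG, 0.0115% in W2 vs MG, 0.0154% in EL vs LG and 0.0346% in W2 vs LG. In these 5 comparisons limma called none of the 9 genes, while unadjusted p values below 0.05 were found for 1, 2, 1, 1 and 0 of them, in the same order. Of the 26019 features, 1154, 4139, 804, 1609 and 1968 had such unadjusted p values, again in that order. The 9 genes were thus called no more often than features in general.

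VDR (chromosome 5, 78205807 to 78266505, Sscrofa11.1) was low at MG and higher in most later samples, with wide spread in lactation. Its gene sums were 0.0461, 0.180 and 7.43 units in MG samples 1, 3 and 6, and 73.5, 54.6 and 34.8 units in LG samples 1, 3 and 4. They were 75.8, 2.94 and 18.1 units in EL samples 3, 4 and 6. They were 26.2, 50.8 and 18.1 units in PL samples 2, 3 and 6, and 40.4, 43.0 and 47.0 units in W2 samples 2, 3 and 6. The MG samples lay below all LG, PL and W2 samples without overlap, but EL sample 4 fell inside the MG range. Both measured transcripts, NM_001097414.1 and XM_021091108.1, were low at MG, with 2 of 3 and 1 of 3 MG samples listed at 0.

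VDR was called over the 5 stages (adjusted p = 0.021, limma) and in PL vs MG, where it was higher at PL by 4.36 on the log2 scale (SE 1.07, adjusted p = 0.012). The difference was larger in LG vs MG (5.19, SE 1.07) but was not called (adjusted p = 0.57), nor were EL vs MG (3.57, adjusted p = 0.23) and W2 vs MG (4.94, adjusted p = 0.50). PL against the mean of the other stages was not called (0.94, SE 0.84, adjusted p = 0.44). The 5-stage call was lost without MG sample 1 (adjusted p = 0.086) or MG sample 3 (0.093), and PL vs MG without MG sample 3 (0.057). Without MG sample 6, in which VDR was highest of the MG samples, LG vs MG (adjusted p = 0.033) and W2 vs MG (adjusted p = 0.046) were called as well. With median ratio scaling VDR was called over the 5 stages as well (adjusted p = 0.028), where 8.16% of all features were.

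The vitamin D list held 12 genes, of which 6 were measured. In PL against the other stages, 2 fell and none rose, with a list median of -0.48 against -0.47 over all features. In that comparison 30.3% of all features were called, 789 as higher and 7098 as lower. With median ratio scaling 2 rose and 1 fell, where 16.4% of all features were called, and without PL sample 2 the counts were 2 higher and 2 lower (21.4% of all features called). CYP2R1, a 25-hydroxylase of vitamin D, was at 1.83, 1.72 and 2.11 units in PL samples 2, 3 and 6 and between 2.71 and 6.38 units in the other 12 samples. It was lower at PL by value without overlap (log2 fold change -0.91, adjusted p = 0.0052, limma), but with median ratio scaling it was not called (-0.44, adjusted p = 0.19). LRP2, the endocytic receptor that takes up vitamin D bound to its carrier, was listed at 0 in PL samples 2 and 3 and at 0.0188 units in PL sample 6, and it was low in all stages (at most 1.32 units). LRP2 was called (-1.09, adjusted p = 0.0072) and also after scaling (adjusted p = 0.011). CYP27A1, a sterol hydroxylase that can also act on vitamin D, and TRPV6, a calcium channel, are named here after their values were seen. CYP27A1 was at 14.5, 40.7 and 37.1 units in PL samples 2, 3 and 6, of which sample 2 was the lowest of all 15 samples and the others the highest. It was not called as deposited (0.45, adjusted p = 0.17, limma), and was higher at PL with median ratio scaling (1.01, adjusted p = 0.0022) and without PL sample 2 (0.92, adjusted p = 0.00045). TRPV6 was not called as deposited either (0.55, adjusted p = 0.18), and was higher with that scaling (0.94, adjusted p = 0.026) and without PL sample 2 (0.98, adjusted p = 0.023). CYP27B1 and CYP24A1, which make and break down the active hormone, were not analysed here.

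NR3C1 (chromosome 2, 144822937 to 144956451), the glucocorticoid receptor, had the smallest relative spread of the 9 genes, with an SD of 22.2% of its mean over all 15 samples. Its gene sums were 15.0, 20.3 and 16.0 units in the MG samples, 15.4, 16.4 and 19.9 in the LG samples, and 18.0, 13.9 and 14.2 in the EL samples. They were 8.85, 12.3 and 11.9 units in PL samples 2, 3 and 6, and 18.1, 22.0 and 19.2 units in the W2 samples. All 3 PL samples lay below all 12 others. NR3C1 was lower in PL than in the other stages by 0.64 on the log2 scale as deposited (log2 fold change -0.64, SE 0.15, adjusted p = 0.0084, limma), but with median ratio scaling the difference was -0.09 (SE 0.10, adjusted p = 0.58). The exact two-sided permutation test of the deposited values gave p = 0.0022, the smallest that the 455 splits of 3 against 12 samples allow.

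Less the median of all features, the deposited difference of NR3C1 at PL was -0.16. Over the 5 stages NR3C1 was not called (adjusted p = 0.054). It was called there without EL sample 3, and also where the near-copies were included, as all 6 samples or as 1 further sample per stage. It was also called in PL vs MG (-0.62, adjusted p = 0.034), PL vs LG (-0.63, adjusted p = 0.046) and W2 vs PL (0.83, SE 0.19, adjusted p = 0.0068). After median ratio scaling these were 0.02, -0.14 and 0.11, none of them called. As the tissue was sampled in bulk, fewer cells of a type and less RNA per cell cannot be told apart in any of these values. Leaving out each sample in turn kept the calls in PL against the other stages and in W2 vs PL, lost the call in PL vs MG without MG sample 3, MG sample 6 or PL sample 2, and kept that in PL vs LG only without EL 3, MG 3, PL 3 or PL 6.

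NR3C2 (chromosome 8, 80303172 to 80669050), the mineralocorticoid receptor, was at 3.51, 3.19 and 3.09 units in the MG samples, 3.36, 4.33 and 3.96 in the LG samples and 0.980, 4.33 and 5.01 in the EL samples. The PL samples 2, 3 and 6 held 6.00, 6.47 and 3.32 units and the W2 samples 3.14, 2.98 and 3.48. PL samples 2 and 3 were the highest of all 15, and PL sample 6 lay inside the range of the other stages. PL differed from the other stages by 0.56 on the log2 scale (SE 0.33) and was not called (adjusted p = 0.22, limma), nor after median ratio scaling (1.07, adjusted p = 0.072).

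The list of glucocorticoid and mineralocorticoid supply, chaperones and targets held 20 genes, of which 19 were measured. In PL against the other stages 4 rose and 5 fell (30.3% of all features called). With median ratio scaling 4 rose and 2 fell (16.4% of all features). Without PL sample 2 the counts were 3 higher and 3 lower (21.4% of all features). The list median was -0.05 as deposited, against -0.47 over all features. The NR3C1 locus shares 4060 bases with LOC110259145 and the NR3C2 locus 1088 bases with LOC110261980, genes not analysed here, and reads of overlapping genes cannot be told apart without strand.

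HSD11B1, which regenerates active cortisol from cortisone inside cells, rose at PL. It was at 72.6, 315 and 376 units in PL samples 2, 3 and 6, and at 32.7 to 97.8 units in the other 12 samples. PL samples 3 and 6 lay far above every other sample and PL sample 2 inside their range. The log2 fold change was 1.63 (SE 0.46, adjusted p = 0.020, limma) and 2.37 without PL sample 2 (adjusted p = 0.0019), and the call was lost without PL sample 3 or 6 (highest adjusted p 0.11). HSD11B2, the enzyme that inactivates cortisol, fell: its PL samples held 0.382, 0.224 and 2.20 units, against 1.74 to 6.83 units in the others. Its log2 fold change was -1.91 (SE 0.40, adjusted p = 0.0040), -1.56 with median ratio scaling (adjusted p = 0.014), and it was called without any 1 sample.

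Among glucocorticoid-induced genes, ZBTB16 and KLF9, both transcription factors, were higher at PL (log2 fold changes 1.15, adjusted p = 0.023, and 0.77, adjusted p = 0.041, limma). ZBTB16 was at 5.39, 4.86 and 7.30 units in the PL samples, above the highest other value of 4.52. TSC22D3, the glucocorticoid-induced leucine zipper, named after its values were seen, was at 24.0, 13.8 and 24.6 units at PL against 9.46 to 15.9 units elsewhere (0.71, adjusted p = 0.013). The calls of ZBTB16 and TSC22D3 were lost without PL sample 2 or PL sample 6 (highest adjusted p 0.090 and 0.062), and that of KLF9 held in 6 of the 15 settings with a sample left out (highest adjusted p 0.15). Other glucocorticoid-induced genes of the list, FKBP5 (-0.84, adjusted p = 0.43), PER1 (0.28, adjusted p = 0.82), DUSP1 (0.13, adjusted p = 0.78) and SGK1 (-0.27, adjusted p = 0.3), were not called. The PL samples of FKBP5 ranged from 0.0723 to 16.3 units.

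HSP90AB1, a chaperone that holds unliganded steroid receptors ready for hormone, fell most of the list. It was at 237, 371 and 417 units at PL, with no overlap with the 929 to 2340 units of the other samples. Its log2 fold change was -2.35 (SE 0.18, adjusted p = 1.2e-05, limma) and -1.79 with median ratio scaling (adjusted p = 2.5e-06). NEDD4L, a ubiquitin ligase that limits sodium channels at the surface, was lower by 1.03 (log2 fold change -1.03, adjusted p = 0.018), but not after scaling (-0.55, adjusted p = 0.15) or without PL sample 2 (adjusted p = 0.059).

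**Figure D2:**
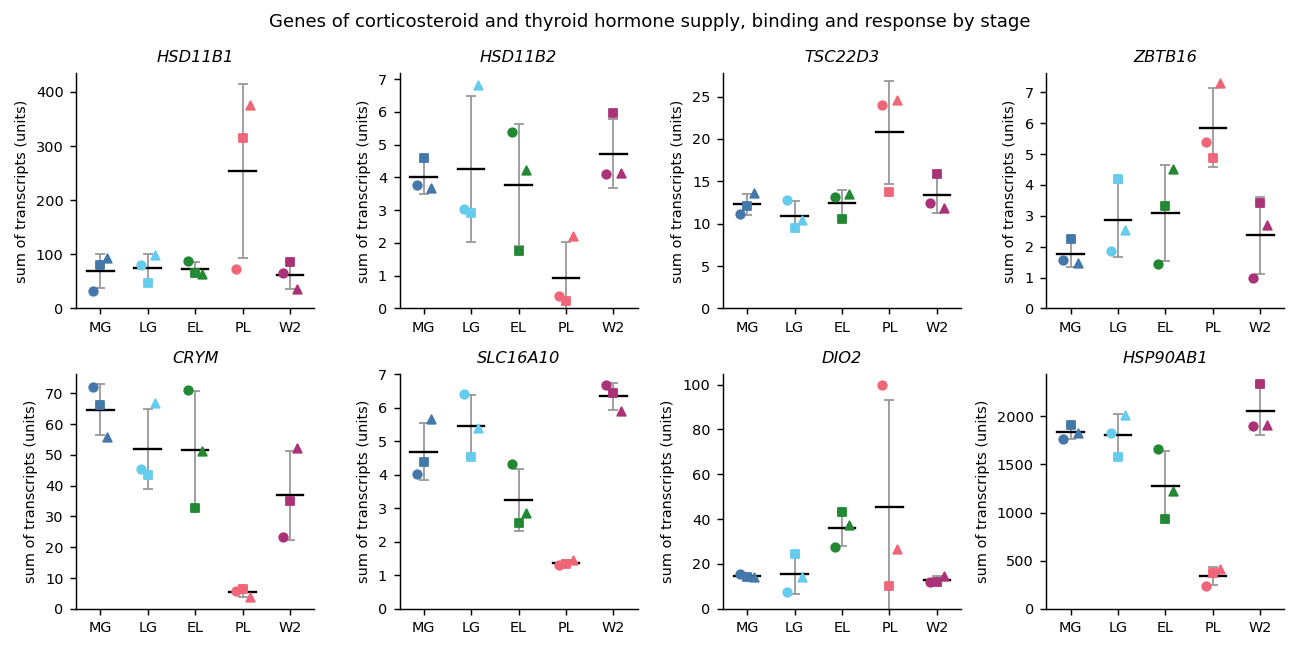
Gene sums in units (vertical axes, from 0) of 8 genes of corticosteroid and thyroid hormone supply, binding and response in the 3 counted samples of each stage (symbols), with stage mean (black line) and SD (grey bar). HSD11B1 was high in PL samples 3 and 6, while CRYM, SLC16A10 and HSP90AB1 were lower in all 3 PL samples than in any other.

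THRA (chromosome 12, 22270506 to 22296684) was lower in the EL samples than in nearly all others. It was at 11.2, 11.4 and 10.8 units in the MG samples, 13.8, 11.7 and 9.29 in the LG samples and 5.25, 3.90 and 5.20 in the EL samples. PL samples 2, 3 and 6 held 4.73, 12.3 and 11.6 units and the W2 samples 13.3, 9.71 and 9.71. The 3 EL samples did not overlap with MG, LG or W2, but PL sample 2 lay in their range.

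THRA was not called over the 5 stages as deposited (adjusted p = 0.055, limma), and was called with median ratio scaling (adjusted p = 0.044) and without PL sample 2 (adjusted p = 0.0038) or PL sample 3 (0.042). The log2 differences of EL were -1.15 from MG (adjusted p = 0.23) and -1.19 from LG (adjusted p = 0.61), and W2 was 1.11 above EL (adjusted p = 0.086). Without PL sample 2, EL vs MG (adjusted p = 0.034) and W2 vs EL (adjusted p = 0.0084) were called, while EL vs LG was not called with any 1 sample left out. PL was 0.83 above EL (adjusted p = 0.16), a difference that was called with median ratio scaling (1.15, adjusted p = 0.016) and without PL sample 2 (1.25, adjusted p = 0.0036). The THRA locus shares 3626 bases with NR1D1 and the library kit does not mark strand, so reads of the 2 genes cannot be told apart there. NR1D1, a clock receptor, was measured at 0.738 to 3.73 units in the EL samples and at 0.514 to 5.03 in the others.

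THRB (chromosome 13, 10900716 to 11360587) was at 14.1, 15.6 and 8.44 units in the MG samples, 0.905, 10.9 and 7.79 in the LG samples and 12.2, 1.29 and 12.6 in the EL samples. The PL samples 2, 3 and 6 held 0.437, 7.58 and 7.10 units and the W2 samples 7.03, 5.55 and 13.3. Single low samples, LG 1, EL 4 and PL 2, set the spread within 3 stages, and all stages overlapped with others. THRB was not called over the 5 stages (adjusted p = 0.63, limma) or at PL (-1.02, SE 0.79, adjusted p = 0.36), and without PL sample 2 the latter difference was 0.00.

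Of the thyroid hormone list, 8 of 11 genes were measured, and 2 fell at PL while none rose (30.3% of all features called). The counts were the same with median ratio scaling (16.4% of all features) and without PL sample 2 (21.4%). The list median was 0.36, against -0.47 over all features, and -0.11 without PL sample 2. CRYM, which binds thyroid hormone in the cytosol, was at 5.67, 6.52 and 3.73 units at PL and at 23.4 to 72.1 units in the other samples. It fell by 3.12 on the log2 scale (adjusted p = 2e-05, limma). SLC16A10, a transporter of aromatic amino acids and thyroid hormones, was at 1.32, 1.32 and 1.46 units at PL and at 2.56 to 6.69 units elsewhere (log2 fold change -1.49, adjusted p = 0.00015). Both were called without any 1 sample.

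DIO2, the deiodinase that makes the active hormone in tissues, was at 27.4, 43.0 and 37.2 units at EL and at 7.42 to 24.6 units in the MG, LG and W2 samples. PL samples 2, 3 and 6 held 99.8, 10.2 and 26.5 units, a range wider than that of all other stages. It was not called at PL (0.78, SE 0.49, adjusted p = 0.25), and the difference without PL sample 2 was -0.07. The EL samples in which THRA was low were thus those in which DIO2 lay above MG, LG and W2, and no test of EL was made for DIO2. DIO1 and DIO3 were not analysed here.

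RXRA (chromosome 1, 273698842 to 273797622) was at 14.6, 10.4 and 13.7 units in the MG samples, 18.7, 16.1 and 14.9 in the LG samples and 8.96, 13.7 and 15.0 in the EL samples. PL samples 2, 3 and 6 held 4.43, 16.8 and 9.47 units and the W2 samples 20.2, 16.6 and 19.8. The W2 samples were high and close together, and PL sample 3 reached their range while the other PL samples did not. RXRA was higher in W2 than at PL by 1.03 on the log2 scale (SE 0.36, adjusted p = 0.047, limma). This was not called with median ratio scaling (0.32, adjusted p = 0.57), or after leaving out any 1 sample other than EL 3 or PL 3. PL against the other stages was -0.70 (SE 0.29, adjusted p = 0.085), with exact permutation p = 0.053, and was called without PL sample 3 (-1.13, adjusted p = 0.0080, limma).

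RARA (chromosome 12, 22047449 to 22085759) was at 9.52, 16.0 and 11.8 units in the MG samples, 11.8, 10.4 and 11.8 in the LG samples and 10.4, 6.21 and 9.02 in the EL samples. PL samples 2, 3 and 6 held 3.42, 18.3 and 11.9 units and the W2 samples 14.4, 15.1 and 13.2. PL held both the lowest and the highest of the 15 values, and the W2 samples differed by less than the spread of any stage but LG. RARA was not called in any comparison, and its PL difference changed sign with the scaling, from -0.28 (SE 0.35) to 0.24 (SE 0.27).

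The other RXR and RAR genes measured, RXRB and RARG, were not called at PL (-1.22, adjusted p = 0.069, and -1.20, adjusted p = 0.060, limma). RXRG and RARB were not analysed here. Of the retinoid list, 11 of 16 genes were measured and 3 fell at PL with none rising (30.3% of all features called). The list median was 0.10, against -0.47 over all features. CRABP2, which carries retinoic acid to RARs, was listed at 0 in PL sample 2 and held 3.21 and 1.39 units in PL samples 3 and 6, against 1.24 to 14.4 units in the others (log2 fold change -1.98, adjusted p = 0.014, lost without PL sample 2). FABP5, a fatty acid binding protein that can also carry retinoic acid, was at 177 to 197 units at PL and at 322 to 509 elsewhere (-1.10, adjusted p = 0.00010). ALDH1A1, a retinoic acid synthesising enzyme, was lower by -0.70 (adjusted p = 0.011) but not after median ratio scaling (-0.14, adjusted p = 0.73) or without PL sample 6 (0.051). With that scaling 1 list gene rose and 2 fell (16.4% of all features called), and without PL sample 2 2 rose and 2 fell (21.4%). ALDH1A3 and RDH10, also of the list and named after their values were seen, were not called as deposited. In PL samples 2, 3 and 6 ALDH1A3 was at 4.40, 40.9 and 52.4 units, against 12.0 to 29.4 units elsewhere. RDH10 was at 6.04, 24.8 and 34.7 units in these samples, against 8.13 to 13.6 units elsewhere.

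Of 38 further nuclear receptors listed, 26 were measured, and 9 fell at PL while none rose (30.3% of all features called). The median was -0.58, against -0.47 over all features. With median ratio scaling the counts were 3 higher and 3 lower (16.4% of all features). Without PL sample 2 they were none higher and 3 lower (21.4%). The largest falls were those of NR1D2, a clock repressor, PPARG, the receptor that drives fat cell differentiation, and NR2C1, an orphan receptor. NR1D2 was at 0.711, 0.287 and 9.36 units in the PL samples, and MG sample 3 and EL sample 3 lay within that range at 2.74 and 3.64 units (log2 fold change -3.01, adjusted p = 0.010, limma, not called without PL sample 2 or 3). PPARG was listed at 0 in PL samples 3 and 6 and in MG sample 3. It held 4.88 units in PL sample 2 and 6.55 to 12.0 units in the remaining samples. Its log2 fold change was -2.75 (adjusted p = 0.029), a call lost after scaling (adjusted p = 0.10) and without PL sample 3 or 6. NR2C1 was at 0.249, 1.40 and 3.85 units in PL samples 2, 3 and 6, the last above EL sample 6 at 2.34 units. Samples of the other stages held up to 9.84 units. The log2 fold change of NR2C1 was -1.72 (adjusted p = 0.0081, limma).

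NCOA1 (chromosome 3, 113997214 to 114251080) was low in most samples. It was at 0.550, 0.720 and 0.299 units in the MG samples, 0.214, 5.46 and 0.269 in the LG samples and 0.771, 0.212 and 2.30 in the EL samples. PL samples 2, 3 and 6 held 0.201, 0.214 and 0.632 units and the W2 samples 0.545, 5.15 and 0.652. LG sample 3, W2 sample 3 and EL sample 6 were high, and the 12 other samples lay between 0.201 and 0.771 units. NCOA1 was not called in any comparison (PL against the other stages -0.76, SE 0.66, adjusted p = 0.42, limma).

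Among 18 measured coactivators and corepressors, 10 fell at PL with none rising (30.3% of all features called). The median was -0.72 against -0.47 over all features. With median ratio scaling (16.4% of all features), or without PL sample 2 (21.4%), 2 fell and none rose. TBL1XR1, a corepressor complex subunit, had a log2 fold change of -2.43 (adjusted p = 0.014, limma), NCOR1, the corepressor of unliganded thyroid hormone and retinoic acid receptors, -1.71 (adjusted p = 0.024), and NRIP1, a corepressor, -1.22 (adjusted p = 0.013). NCOR1 was at 0 or 0.0001 units in the 3 PL samples and in W2 sample 2, and at most 4.02 units elsewhere. TBL1XR1 was at 3.00, 0.146 and 15.7 units in PL samples 2, 3 and 6, against 8.14 to 23.7 units in the other stages. NRIP1 was at 1.51, 1.25 and 5.24 units in these samples, against 2.30 to 9.28 units. PL sample 6 thus lay inside the range of the other stages for both. With median ratio scaling TBL1XR1 (-1.96, adjusted p = 0.073) and NRIP1 (-0.75, adjusted p = 0.12) were not called, while NCOR1 was (-1.64, adjusted p = 0.036). The calls of TBL1XR1 and NRIP1 were also lost without PL sample 2 or 3, and that of NCOR1 without any 1 PL sample. NCOA2 (0.21, adjusted p = 0.86) and NCOA3 (0.93, adjusted p = 0.44), the relatives of NCOA1, were not called.

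GHR (chromosome 16, 27126300 to 27422618) was the 1 gene of the 9 called as higher in PL against the mean of the other 4 stages. It was at 0.692, 2.08 and 0.625 units in the MG samples, 0.744, 0.601 and 2.24 in the LG samples and 1.75, 0.661 and 0.831 in the EL samples. PL samples 2, 3 and 6 held 1.90, 2.60 and 4.08 units and the W2 samples 0.590, 1.71 and 1.36. PL samples 3 and 6 were above all others, and PL sample 2 lay below MG sample 3 and LG sample 4. PL exceeded the other stages by 1.06 on the log2 scale (SE 0.37, adjusted p = 0.048, limma), with an exact permutation p of 0.0066. Different transcripts carried the PL sums. NM_214254.2 held 70.9% and 63.7% of the sum in PL samples 2 and 3. In PL sample 6 it was listed at 0 and XM_013990636.2 held 95.1%. The GHR transcript above 0 in all 15 samples, XM_021076567.1, was not higher at PL (-0.24, SE 0.29, adjusted p = 0.69, limma).

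With median ratio scaling the rise of GHR was 1.52 (SE 0.32, adjusted p = 0.0073). GHR was then also called in PL vs MG (1.62, adjusted p = 0.024), PL vs LG (1.49, adjusted p = 0.042) and W2 vs PL (-1.56, adjusted p = 0.026), the last where 13.1% of all features were called. As deposited, the call at PL was close to the threshold, and it was kept only without MG 3, LG 4, EL 3 or W2 3 among the 15 samples left out in turn (log2 fold change 0.81 to 1.28, adjusted p 0.027 to 0.18). The call was also lost with a pseudocount of 0.1, with the sample number as a block and with the highest transcript in place of the sum. With a pseudocount of 1 it was kept. GHR was low throughout, and at a few units the precision of a single value is not known, since the table gives no read counts.

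The growth hormone list held 16 genes, 13 of them measured. At PL 1 rose and 4 fell (30.3% of all features called), with a median of -0.48 against -0.47 over all features. With median ratio scaling 3 rose and none fell (16.4% of all features). Without PL sample 2, 2 rose and 1 fell (21.4%). IGFALS, which stabilises IGF in plasma, was higher (log2 fold change 1.55, adjusted p = 0.034, limma) at 1.24, 5.92 and 0.940 units against at most 1.79 elsewhere, and was not called without PL sample 2, PL sample 3, EL sample 3, LG sample 3 or W2 sample 6. SOCS2, the feedback inhibitor of GHR signalling, was at 8.55, 10.1 and 9.33 units at PL and at 13.0 to 19.8 elsewhere (-0.75, adjusted p = 0.0026), and not called after scaling (-0.21, adjusted p = 0.45). STAT5B, a mediator of GHR and prolactin signals, held 48.2, 48.8 and 79.9 units at PL, against 61.9 to 192 elsewhere (-1.10, adjusted p = 0.015), and was not called after scaling (-0.54, adjusted p = 0.18) or without PL sample 2 or 3. PTPN11, a phosphatase of the pathway, was at -0.67 (adjusted p = 0.011), also lost after scaling (-0.12, adjusted p = 0.58) and without PL sample 2.

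STAT5A, the other STAT5 gene, was not called (-0.92, adjusted p = 0.28), and LG sample 1 and EL sample 6 held 70.7 and 76.8 units against 6.14 to 17.9 units in the rest. JAK2 (-0.32, adjusted p = 0.33), CISH (0.64, adjusted p = 0.45) and IGF1 (-1.22, adjusted p = 0.22) were not called. PRLR was not analysed here.

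**Figure D3:**
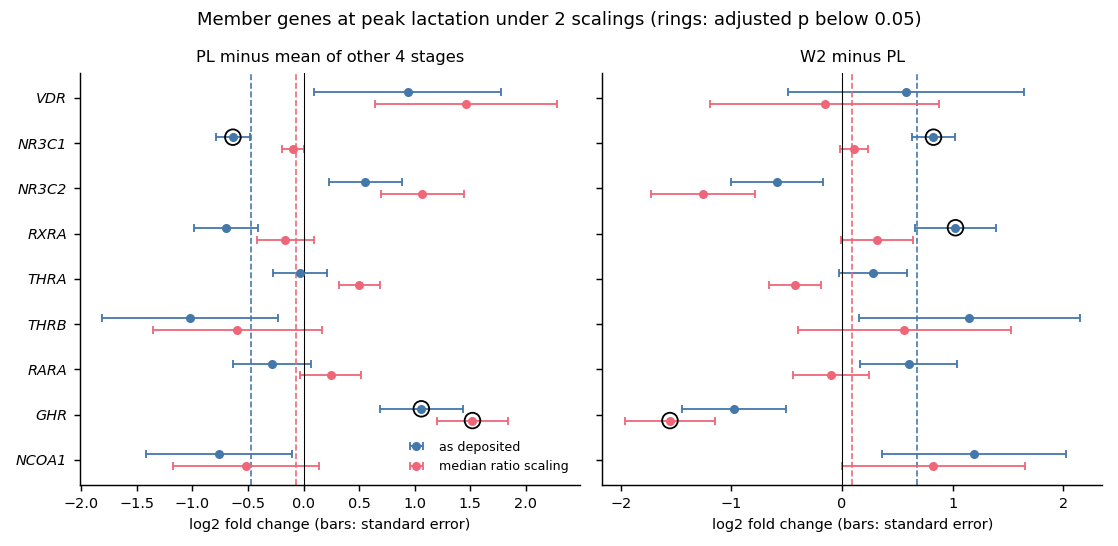
Log2 fold changes (horizontal axis, bars are SE) of the 9 genes in PL against the mean of the other stages and in W2 against PL, as deposited (blue) and with median ratio scaling (red). Dashed lines are the medians of all features and rings mark adjusted p below 0.05. NR3C1 and RXRA lie near the median of all features, while GHR lies above it at PL under both scalings.

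In NR3C1, RXRA, NR3C2, THRB, VDR, RARA and GHR the most abundant transcript varied more within stages than the gene sum did. NR3C1 had 9 measured transcripts, of which 4 different ones led in the 15 samples. The within-stage SD of its gene sum was 0.20 on the log2 scale, against 2.11 for its most abundant transcript, XM_021080385.1, which was listed at 0 in 8 samples. For RXRA the SDs were 0.47 and 2.16 and for NR3C2 0.52 and 1.53. RXRA was carried by XM_021071477.1 in 11 samples and by XM_021071603.1 in the other 4. THRB had 5 different leading transcripts with SDs of 1.35 for the sum and 1.54 for XM_021071428.1. THRA alone of the 9 had 1 leading transcript in all 15 samples, XM_021066243.1, with 90.9% of the gene sum, and RARA was led by XM_003131474.6 in 14.

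Transcripts were also tested singly, and one was called where its adjusted p was below 0.05 and its log2 fold change at least 2 in either direction. By this rule 1 of 340 transcript and stage pairs of the 9 genes was called. This was VDR XM_021091108.1 in PL vs MG (4.58, SE 1.17, adjusted p = 0.046, limma), where 1.76% of all transcripts were called. The count was 0 to 4 with 1 sample left out, and 0 without MG 1, MG 3, EL 6, PL 2, PL 3 or any 1 of the LG or W2 samples. The second VDR transcript, NM_001097414.1, had a log2 fold change of 3.55 there (adjusted p = 0.061).

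**Figure D4:**
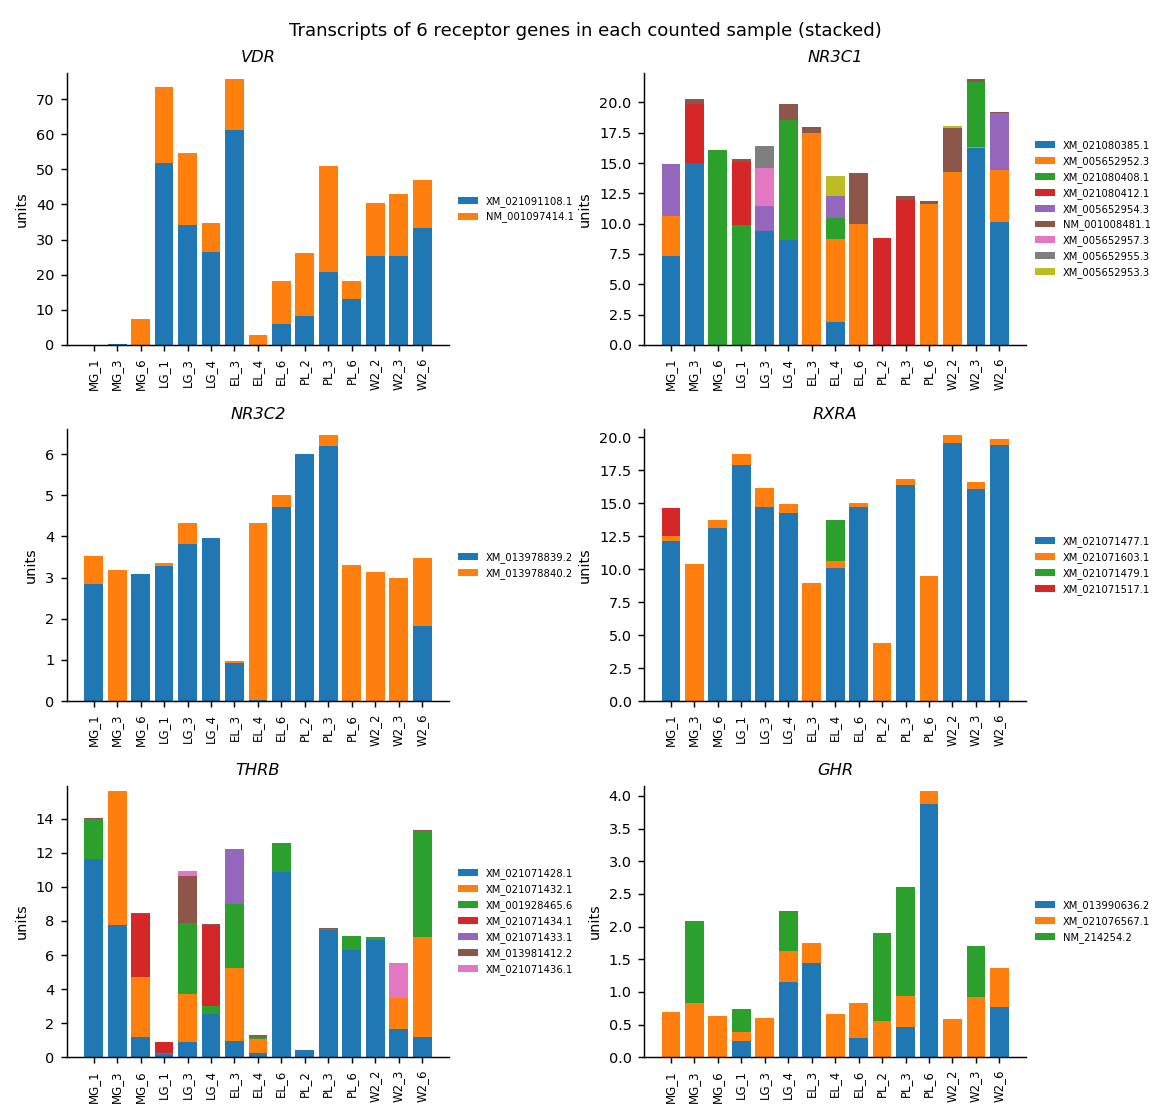
Units (vertical axes, from 0) of each measured transcript, stacked, for VDR, NR3C1, NR3C2, RXRA, THRB and GHR in the 15 counted samples. In most stages the transcript that carries NR3C1, RXRA or NR3C2 differs between samples, while the total height varies less.

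Markers of the cell types that mammary parenchyma holds moved with the stages. The summed level of 6 secretory epithelium markers was 11906 to 29461 units at MG, 63857 to 120785 at EL, 91237 to 285004 at PL and 5781 to 8140 at W2, and 5 of the 6 were higher at PL than in the other stages. Of the 7 epithelium markers, 1 was lower and none higher at PL. All 6 fibroblast markers were measured and 4 were lower at PL, with sums of 472 to 1087 units at PL and 1401 to 2632 at W2. Of 7 adipocyte markers 5 were measured, with 1 higher and 1 lower, and their sum was 256 to 392 units at PL against 447 to 735 elsewhere. Of the measured macrophage markers 1 was called higher and 4 lower. Their sum was 66.3 to 369 units at PL (median 317) and 98.0 to 207 units elsewhere. Of the lymphocyte markers 3 were called lower, of the endothelium markers 1, and of the 5 measured myoepithelium markers none was called. The myoepithelium sum was 863 to 1055 units at EL, 756 to 1889 at PL and 1160 to 1676 in MG, LG and W2. These marker counts are of calls in PL against the other stages as deposited, where 30.3% of all features were called. KRT14, KRT17, ADIPOQ, PLIN1, CDH5, CD68 and MS4A1 were not analysed here. The part of these markers in the changes of NR3C1, RXRA and GHR was not tested.

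Among 8137 reference genes with a mean of at least 5 units, the levels most like NR3C1 over the 15 samples were those of BLZF1 and BRD7 (Pearson r 0.98 and 0.97 of log2 values, a description in which all genes share the same libraries and the same shift at PL). RARA was followed most closely by PPP1R9B (0.98) and LRRC8A (0.97), and RXRA by MIRLET7D and UBXN6 (both 0.90). THRA was nearest to FOXS1 (0.88) and TRIM8 (0.87), THRB to MORN2 and RBM10 (both 0.87), and GHR to VAV1 (0.87) and TMED10 (0.84). VDR was nearest to THAP11 (0.86) and MBTD1 (0.83), NR3C2 to CEPT1 and IVNS1ABP (both 0.80), and NCOA1 to LZTR1 (0.70) and ZMYND19 (0.68).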

How the data were processed

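RNA of the mammary samples was sequenced from libraries of an unstranded kit. According to their methods, the authors used HISAT2 to align trimmed reads to Sscrofa11.1, assembled and quantified transcripts with StringTie and kept those with FPKM of at least 0.5 in a stage. The deposited values are named FPKM, but they sum to about the same total in every sample. Whether they include the authors' removal of unwanted variation was not given in the sources used here. The authors list the clean and mapped reads of each library and placed raw transcript counts elsewhere, which were not used here. The table itself holds no reads per transcript, so the reads behind a single value are not given. p-values measure the spread between the counted sows.

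Of 61773 transcripts, 32675 were matched to reference genes by identifier or symbol, 29047 were transcripts of loci that the authors assembled (11061 loci) and 51 stayed unmatched. Sums per gene were tested as log2(value + 0.5) with limma 3.58.1 in R 4.3.3, the 5 stages in a single fit, a variance trend, and Benjamini-Hochberg adjustment over all 26019 features in each comparison. Tables were handled in Python 3.11.15 with pandas 2.3.3, numpy 2.4.6 and scipy 1.17.1, and figures drawn with matplotlib 3.10.9. Data were simulated for the PL against other stages design with independent noise, and changes were planted in features with a mean of at least 5 units. Over 26019 gene sums, 79 of 100 planted log2 changes of 2 and 94 of 100 of 4 were recovered, with 11 false calls. Over 61773 transcripts these were 51 and 72 of 100, with 8 false calls. No smaller change was planted, and none in genes as low as GHR, NR3C2 and NCOA1, so the recovery for those is not known.

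All 9 genes and all their transcripts were named. From each of the 7 pathway lists, at most 3 genes with the largest change in each direction among those called at PL were named, with direct partners given by value, and 2 genes most like each member. The members, the lists and the comparison of PL with the other stages were chosen with earlier results of these data known. The limma and permutation p values of that comparison are thus not those of a comparison fixed in advance. Alternatives were other pseudocounts, scalings, filters, sample sets, a replicate block, the highest transcript of a gene, and each sample left out in turn. Sequences of the genes were not used here.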

Additional observations from a re-analysis of the deposited data

How the results depend on the processing

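Over the 5 stages 1 of the 9 genes was called. This became 8 with all 6 samples per stage, 4 with the near-identical samples as 1 further sample, 2 with quantile normalization and 2 with median ratio scaling, and 0 to 3 when 1 sample was left out. Of all 26019 features, 4758 were called over the 5 stages in the main fit and 19733 with all 6 samples. The count was 2174 with quantile normalization and 2124 with median ratio scaling, and shares for the other settings are not given here. The 5 called gene and stage pairs became 29 with all 6 samples, 18 with the further sample, 0 with the compared stages alone, 3 without a variance trend, 1 with the highest transcript in place of the sum, 1 with a log2 fold change of at least 2, and 2 to 7 with a sample left out. With all 6 samples, from 2254 (W2 vs MG) to 16475 (W2 vs PL) of the 26019 features were called in a single pair of stages. The 2 genes called at PL against the other stages became 5 with all 6 samples, 1 with a pseudocount of 0.1, 1 with quantile normalization, 1 with median ratio scaling, 0 with the highest transcript, and 1 to 2 with a sample left out. Of all 26019 features, 7887 were called there in the main fit and 15602 with all 6 samples. The count was 4390 with quantile normalization and 4260 with median ratio scaling. The 1 transcript called became 32 with all 6 samples, 9 with the further sample, 2 with a pseudocount of 0.1, 0 with a pseudocount of 1, 2 with median ratio scaling and 0 to 4 with a sample left out, the last chosen after seeing the data. The near-identical samples carry the mean of the counted ones, so the counts that include them understate the spread.

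Differences that changed sign were NR3C1 in PL vs MG with median ratio scaling (0.02), RARA at PL with quantile normalization (0.23), with median ratio scaling (0.24) and over the samples left out in turn (-0.76 to 0.37), and THRB at PL with the highest transcript (0.42) and over the samples left out (-1.55 to 0.00). The cause was not tested. Of 539 recomputed differences, 436 kept their direction and side of the threshold, 67 lost a call, 30 gained one and 6 changed sign.

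The numbers of the samples do not pair them: same-numbered pairs correlated at -0.14 to 0.17 and other pairs at -0.19 to 0.26. With a replicate block, 1 gene and stage pair and 1 gene at PL against the other stages were called. Limits are the 3 counted samples per stage, the absence of read counts in the table used, the shift of all features at PL, and the gene sums that lack assembled transcripts.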

Other observations

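The 15 samples that were not counted lay close to the means of the counted ones for the abundant members. VDR was at 2.26 to 2.57 units in the 3 uncounted MG samples and at 53.2 to 54.0 units in those of LG, where the counted samples averaged 2.55 and 54.3. THRA was at 4.28 to 5.35 units in the uncounted EL samples, and its counted EL mean was 4.78. For the least abundant members the uncounted samples varied more: GHR was at 0.293 to 3.80 units in those of W2 and NCOA1 at 0.928 to 2.76 units in those of LG.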
